A study of Mus musculus with 14 samples.

Results

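The genes for potassium channels and for the hyperpolarization-activated HCN channels were followed across PiC neurons of male and female mice. The set was every gene whose symbol names a potassium channel subunit (Kcn followed by letters and a number) or an HCN channel. It held 96 of the 55401 genes in the count table, in 6 classes. These were 40 voltage-gated (Kv) pore and modifier subunits, 4 HCN genes, 8 genes of the KCa group (calcium- or sodium-activated channels and the related Kcnu1), 15 inward rectifiers (Kir), 14 tandem-pore-domain (K2P) leak channels and 15 auxiliary subunits. The libraries fell into male PiC-MeA (n = 3), female PiC-MeA (n = 3), male PiC-PrL (n = 4) and female PiC-PrL (n = 4) neurons of wild-type C57BL/6 mice. All mice had received 0.1 µl of AAVretro-EGFP, a virus taken up by axons and carried back to the cell body, in MeA or in PrL, so no group was free of virus. PiC, MeA and PrL are written as in the labels. Each library was made from 4 to 5 EGFP-positive cells, drawn into a pipette with a tip of 60 to 100 µm and amplified from polyadenylated RNA by SMART-Seq2. No age is given, and whether different tubes hold cells of different animals is not stated, so each p-value below measures only the spread between these libraries, which may be partly technical.

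Potassium channels let potassium leave the cell, which pulls the membrane towards rest, and their subtypes open at different voltages and speeds. Kv4 channels with their KChIP partners carry the fast transient A-current of dendrites, Kv7 channels the slow M-current, Kv2 and Kv3 channels shape repolarization, and Kir3 (GIRK) channels open when G-protein-coupled receptors release G beta-gamma subunits. The calcium-activated channels of the KCa group answer to calcium entry, and K2P channels set the resting leak. HCN channels pass a mixed cation current that opens as the cell hyperpolarizes and resists further hyperpolarization.

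Library totals ran from 6132985 to 15392217 counts. The channel genes together took 0.335 to 0.8294% of them. The 3 male PiC-MeA libraries stood apart, with 18964 to 20014 genes holding a count, against 12479 to 14908 in the other 11, and with 73 to 79 channel genes holding a count, against 56 to 67. Pan-neuronal markers were found in every library. Their summed level was 7169 to 9591 CPM (counts relative to the TMM-scaled library size) in male PiC-MeA, 7531 to 10360 in female PiC-MeA, 12745 to 20548 in male PiC-PrL and 10819 to 16731 in female PiC-PrL libraries. Tubb3 alone of those 6 markers was at 0 everywhere. Markers of inhibitory neurons varied within groups. Gad1, a GABA-synthesizing enzyme, stood at 27.9, 156 and 815 CPM in male PiC-MeA, 1.71, 32.97 and 2.89 in female PiC-MeA, 27.9, 57.8, 4.87 and 9.79 in male PiC-PrL and 888, 49.6, 46.99 and 339 in female PiC-PrL libraries, and male PiC-MeA replicate 3 also had 562 CPM of the glutamate transporter gene Slc17a6, against 0.237 and 243 CPM in the other male PiC-MeA libraries. The same replicate had the lowest Camk2a (159 CPM), Neurod6 (2.89 CPM) and sum of 8 excitatory markers (853 CPM) of all libraries. That sum was 853 to 2274 CPM in male PiC-MeA, 1121 to 1993 in female PiC-MeA, 1531 to 1958 in male PiC-PrL and 1145 to 1923 in female PiC-PrL libraries. Of the 12 inhibitory markers, Dlx1 and Dlx6os1 were at 0 in all groups, and Slc32a1 did not pass 3.01 CPM. In pools of a few cells, fewer cells of a type and less RNA per cell cannot be told apart.

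A core of channel genes was read in every tube, and most of the others in some tubes only. Of the 96 genes, 22 had at least 10 counts in all 14 libraries, 56 reached 10 counts in some libraries, and 18 did so in none, 10 of these being at 0 counts throughout. The core held, among others, the Kv genes Kcna2, Kcna6, Kcnb2, Kcnc2, Kcnd2, Kcnd3, Kcnh1, Kcnh7, Kcnq3, Kcnq5 and Kcnv1, the KCa genes Kcnma1 and Kcnt2, the GIRK genes Kcnj3, Kcnj6 and Kcnj9, and the auxiliary genes Kcnab2, Kcnip3, Kcnip4 and Kcnmb4. No K2P gene was in it. The 10 genes at 0 were Kcna3, Kcna7, Kcnj8, Kcnj13, Kcnj15, Kcnk15, Kcne2, Kcne3, Kcne4 and Kcnmb1, and a count of 0 allows a level of up to 3 counts, which was 0.192 to 0.425 CPM per library. In the GENCODE M21 annotation, exons of 27 of the 96 genes overlap an exon on the other strand. Among the genes at 0 these were Kcnj13, Kcnj15 and Kcne3, and among those described below Kcna6, Kcnd3, Kcnh7, Kcnq5, Hcn3, Kcnma1, Kcnn1, Kcnn2, Kcnt2, Kcnj3, Kcnj6, Kcnj9, Kcnk1, Kcnk2, Kcnk3, Kcnab1, Kcnip4 and Kcnmb4. Exons of Kcnk4 and Kcnab2 overlap a gene on the same strand. The sources used here do not name the strand setting of the counting, so reads from such overlaps cannot be told apart. Leaving out the 3 male PiC-MeA libraries kept the core at 22 and raised the genes that never reached 10 counts to 25. Leaving out male PiC-PrL replicate 2 raised the core to 26, since Kcnab1, Kcnc1, Kcng1 and Kcnh6 fell under 10 counts in that library alone.

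**Figure D1:**
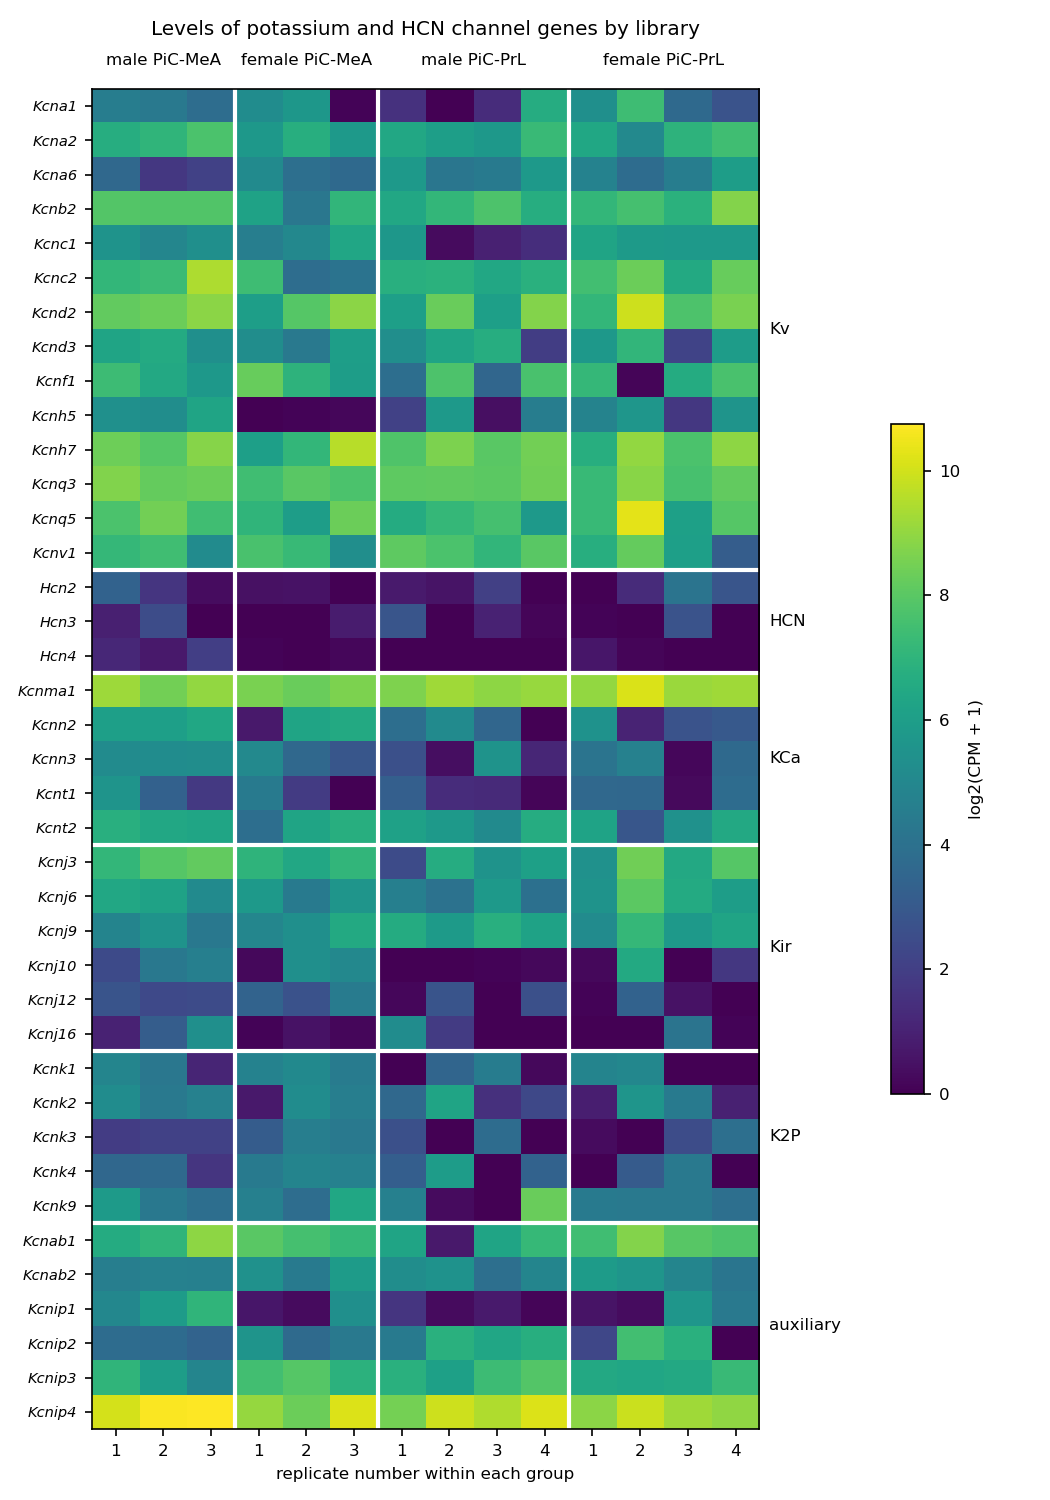
Level of the channel genes named with levels in each library, as log2(CPM + 1), in columns grouped as male PiC-MeA, female PiC-MeA, male PiC-PrL and female PiC-PrL and in rows grouped by class. Kcnip4 and Kcnma1 are bright in all 14 columns, while rows such as Kcnj16, Kcnip1 and Hcn3 switch between dark and bright within a group.

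Levels of different genes were compared as TPM, which divides counts by exon length before scaling each library to the same total. By this measure auxiliary subunits took 43.04% (28.3 to 51.1%) of the summed channel TPM (median and range over 14 libraries), Kv subunits 39.6% (31.2 to 49.4%), Kir 7.5001% (3.68 to 10.996%), KCa 6.52% (4.92 to 9.01%), K2P 3.26% (1.77 to 7.48%) and HCN 1.04% (0.117 to 3.06%). The high auxiliary share was mostly 1 gene. Kcnip4, which encodes the KChIP4 partner of Kv4 channels (GENCODE M21, GRCm38, chr5:48389502-49524907 on the minus strand, the longest of the channel genes tested, at 1135 kb), had the highest TPM of all channel genes in 14 of 14 libraries, with a median of 569 TPM (290.3 to 1618) and 15.9 to 45.4% of the channel total. After it came Kcnd2 at 167, Kcnip3 at 111, Kcnv1 at 110.2, Kcnma1 at 89.9 and Kcnf1 at 75.7 TPM (medians). The 5 highest genes of a library held 42.1 to 64.98% of its channel TPM. With length taken from the longest transcript in place of all exons, the first 3 ranks were the same and Kcnma1 stood before Kcnv1.

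**Figure D2:**
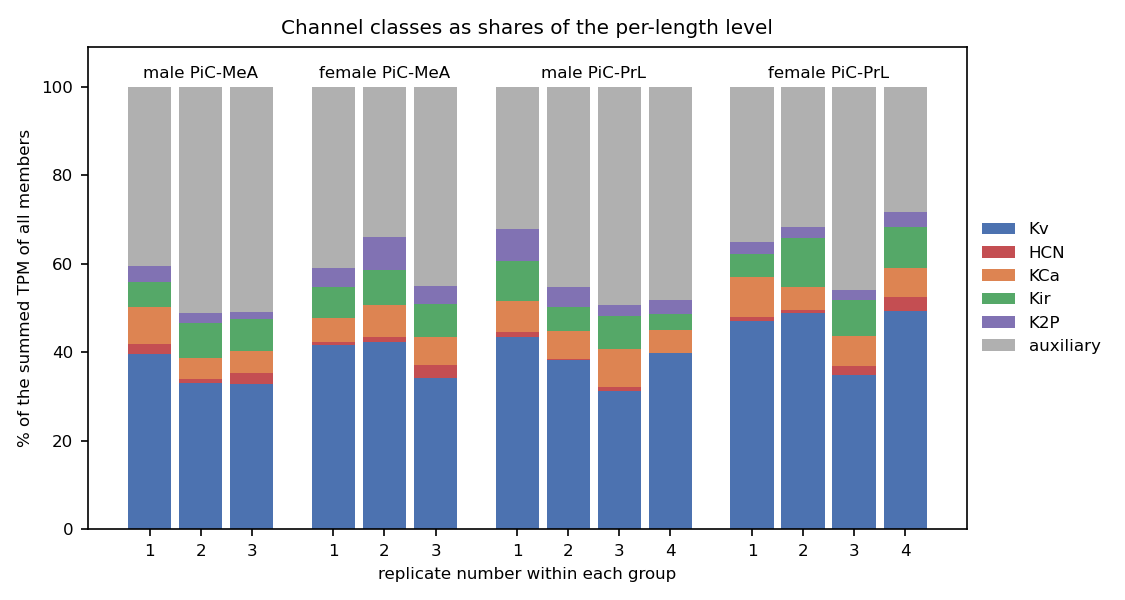
Share of each channel class in the summed TPM of all channel genes (%), 1 stacked bar per library, in the order male PiC-MeA, female PiC-MeA, male PiC-PrL and female PiC-PrL. Auxiliary and Kv subunits fill most of every bar, and HCN genes stay at or under 3.06%.

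The 3 genes with the highest median TPM, Kcnip4, Kcnd2 and Kcnip3, all encode parts of A-type channel complexes. Kcnd2, the Kv4.2 pore subunit, held 90.02% (45.4 to 99.6%) of the Kv4 TPM and was first in 14 of 14 libraries, while Kcnd3 (Kv4.3) held 9.78% (0.351 to 38.01%) and Kcnd1 (Kv4.1) 0.310% (0 to 16.6%). Kcnd2 had 285, 320.0 and 467 CPM in male PiC-MeA libraries, 64.7, 239 and 464 in female PiC-MeA libraries, 65.7, 309, 66.4 and 437 in male PiC-PrL libraries and 139, 981, 215 and 383 in female PiC-PrL libraries. The values of all 4 groups overlapped, and each group but male PiC-MeA held both low and high libraries. Among the KChIP calcium-binding proteins, Kcnip4 held 77.1% (55.97 to 93.8%) and was again first in 14 of 14 libraries, Kcnip3 13.4% (1.61 to 41.8%), Kcnip2 3.18% (0 to 15.7%) and Kcnip1 0.147% (0.00360 to 4.17%). Kcnip4 had 1052, 1662 and 1722 CPM in male PiC-MeA libraries, 524, 327 and 1171 in female PiC-MeA libraries, 366, 974, 704 and 1152 in male PiC-PrL libraries and 477, 935, 588 and 504 in female PiC-PrL libraries. Of the libraries outside male PiC-MeA, female PiC-MeA replicate 3 and male PiC-PrL replicate 4 were above the lowest male PiC-MeA value. The other Kv4 partners were found as well. Dpp10 and Dpp6, the dipeptidyl-peptidase-like proteins that speed Kv4 gating, had medians of 215 and 36.6 TPM.

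Kv1 channels, which act in axons, were led by Kcna2 (Kv1.2) with 38.9% (6.84 to 70.3%) of the family TPM. It was first in 8 libraries and Kcna1 (Kv1.1) in 4. Kcna1 was the less steady of the pair, with 22.6, 19.5 and 13.3 CPM in male PiC-MeA libraries, 36.6, 50.2 and 0.0643 in female PiC-MeA libraries, 1.86, 0, 1.60 and 101 in male PiC-PrL libraries and 39.5, 167, 11.9 and 5.82 in female PiC-PrL libraries, and its level ran from 0 to 101 CPM within male PiC-PrL alone. Of the Kv beta subunits that bind them, Kcnab1 was first in 13 of 14 libraries with 73.8% (0.963 to 88.96%), the exception being male PiC-PrL replicate 2, where it had 8 counts. Kcnab2 was steadier, at 16.9999 TPM (7.43 to 39.3).

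Kcnb2, the Kv2.2 delayed rectifier subunit, had 231, 226 and 224 CPM in male PiC-MeA libraries, 71.4, 17.996 and 133 in female PiC-MeA libraries, 86.99, 138, 212 and 102 in male PiC-PrL libraries and 139, 193, 115 and 426 in female PiC-PrL libraries. The male PiC-MeA values lay within a few CPM of each other, and all 3 were above the female PiC-MeA values. The silent modifier genes whose products act in complexes with Kv2 pore subunits, Kcnf1 and Kcnv1, were each first of the 10 modifier genes in 7 libraries. Kcnv1 had 110.2 TPM (5.01 to 186) and Kcnf1 75.7 TPM (0.0425 to 198), both above Kcnb2 at 28.5 TPM at the median, although Kcnf1 dropped to 1 count in female PiC-PrL replicate 2. Kcng1, another modifier, reached 23.8 TPM (0.0475 to 92.96).

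Kcnc2 (Kv3.2) led the fast Kv3 channels in 12 libraries with 74.5% (14.8 to 99.8%) of their TPM. It had 137, 161 and 687 CPM in male PiC-MeA libraries, 168, 13.4 and 15.95 in female PiC-MeA libraries, 110.1, 116, 87.4 and 111 in male PiC-PrL libraries and 179.5, 327, 92.6 and 304 in female PiC-PrL libraries. Its highest value, in male PiC-MeA replicate 3, stood in a library with 815 CPM of Gad1, and its lowest values in female PiC-MeA replicates 2 and 3 with 32.97 and 2.89 CPM. The library with the least Gad1, female PiC-MeA replicate 1 at 1.71 CPM, had 168 CPM of Kcnc2, and the one with the most, female PiC-PrL replicate 1 at 888 CPM, had 179.5 CPM. Kv3 channels are known from fast-spiking inhibitory neurons. Kcnc1 (Kv3.1) was at 45.2, 29.6 and 40.4 CPM in male PiC-MeA libraries, 22.9, 31.4 and 80.2 in female PiC-MeA libraries, 51.3, 0.244, 0.973 and 1.66 in male PiC-PrL libraries and 77.2, 57.1, 53.8 and 53.5 in female PiC-PrL libraries, under 2 CPM in 3 of the 4 male PiC-PrL libraries.

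Kv7 transcripts came mainly from Kcnq5 and Kcnq3, first in 8 and 6 libraries, with 49.6% (22.1 to 79.3%) and 38.8% (15.01 to 73.1%) of the family TPM. Both encode subunits of the channels of the M-current. Kcnq3 was among the steadiest channel genes, with 420.4, 296 and 323 CPM in male PiC-MeA libraries, 175, 254 and 206 in female PiC-MeA libraries, 274, 275, 265 and 339 in male PiC-PrL libraries and 150.2, 454, 195 and 286 in female PiC-PrL libraries. In the EAG, ERG and ELK family, Kcnh7 (ERG3) was first in 14 of 14 libraries with 46.5% (24.01 to 82.9%), followed by Kcnh5 with 14.2% (0 to 30.1%) and Kcnh1 with 12.3% (2.34 to 29.5%).

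**Figure D3:**
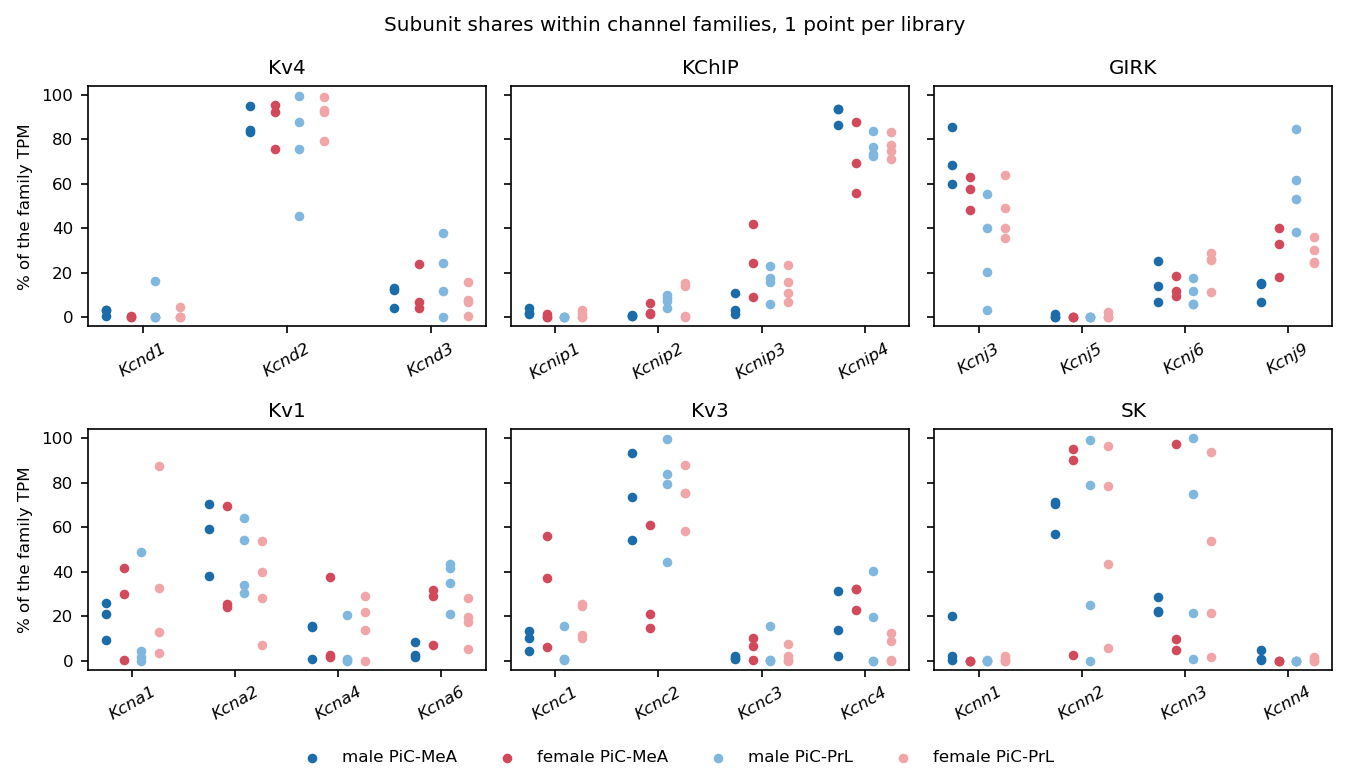
Share of each subunit in the summed TPM of its family (%), 1 point per library (4 of the 8 Kv1 genes are drawn), coloured as male PiC-MeA, female PiC-MeA, male PiC-PrL and female PiC-PrL. Kcnd2 and Kcnip4 stay at the top of their families in all 14 libraries, whereas Kcnj3 and Kcnj9, and Kcnn2 and Kcnn3, trade places.

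Hcn2, Hcn3 and Hcn4 were scarce. Hcn2 had a count in 11 libraries and at most 16.5 CPM, Hcn3 a count in 8 and at most 6.15 CPM, and Hcn4 a count in 7 and at most 3.03 CPM. The highest Hcn2 value came from female PiC-PrL replicate 3. Pex5l, which encodes the TRIP8b protein that steers HCN channels to dendrites, had a median of 23.6 TPM (0.121 to 55.4).

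Among calcium-activated channels, Kcnma1, the BK channel pore (GENCODE M21, GRCm38, chr14:23289431-24014491 on the minus strand), had 89.9 TPM (59.04 to 147) and the smallest spread within groups of the 22 core genes. It stood at 579, 355 and 509 CPM in male PiC-MeA libraries, 385, 311 and 399.5 in female PiC-MeA libraries, 407, 602, 485 and 539 in male PiC-PrL libraries and 518, 1127, 555 and 597 in female PiC-PrL libraries. Its neuronal beta subunit Kcnmb4 was first of the 4 BK beta genes in 10 libraries. The SK genes alternated. Kcnn2 (SK2) was first in 9 libraries and Kcnn3 (SK3) in 5, while Kcnn1 and Kcnn4 were under 10 counts in 12 and 13 libraries. Of the sodium-activated channels, Kcnt2 (Slick) was first in 12 libraries and Kcnt1 (Slack) in 2.

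Of the Kir genes, the GIRK subunits Kcnj3, Kcnj9 and Kcnj6 had the highest median TPM. Kcnj3 (GIRK1) was first in 10 libraries with 52.4% (3.26 to 85.8%) of the GIRK TPM, Kcnj9 (GIRK3) in 4 with 31.7% (6.91 to 84.8%), and Kcnj6 (GIRK2) held 13.1% (5.94 to 29.2%). Kcnj5 (GIRK4), best known from the heart, was under 10 counts in 12 libraries. Snx27, which sorts GIRK3-containing channels, had a median of 40.2 TPM. Kcnj10 (Kir4.1), an astrocyte channel, had 4.34, 18.9 and 23.96 CPM in male PiC-MeA libraries, 0.163, 40.3 and 31.5 in female PiC-MeA libraries, 0, 0, 0.0695 and 0.185 in male PiC-PrL libraries and 0.161, 92.3, 0 and 2.39 in female PiC-PrL libraries. Its usual partner Kcnj16 (Kir5.1) peaked at 39.99 CPM in male PiC-MeA replicate 3, but did not follow it from library to library. Kcnj16 was at 36.3 CPM in male PiC-PrL replicate 1 and 16.7 CPM in female PiC-PrL replicate 3, where Kcnj10 was at 0. In female PiC-MeA replicates 2 and 3 and female PiC-PrL replicate 2, where Kcnj10 was highest, Kcnj16 was at 0.454, 0.129 and 0 CPM. Among K2P leak channels, Kcnk1 (TWIK-1) at 28.6 TPM (0 to 50.4) and Kcnk2 (TREK-1) at 13.9 TPM (0.414 to 41.2) were the highest by median, then Kcnk4 (TRAAK) at 7.56, Kcnk9 (TASK-3) at 5.24 and Kcnk3 (TASK-1) at 3.46 TPM. Kcnk9 reached 317 CPM in male PiC-PrL replicate 4 and at most 83.1 CPM in any other library.

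How far tubes of the same group differed depended on the gene. The within-group SD of log2(CPM + 1), pooled over the groups, had a median of 0.956 for the 22 core genes, from 0.352 for Kcnma1 to 1.61 for Kcnd3. For Kcnq3 it was 0.401. The 56 genes found in part of the libraries had a median of 1.62 and a highest value of 2.41 (Kcna4).

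The design asks whether these levels differ by sex and by projection target. For 7 contrasts, sex within each projection, projection within each sex, both averages and the difference between the sex differences, edgeR's quasi-likelihood test over 14599 genes called 0 of the 71 channel genes that passed the filter on low counts (33 Kv, 4 HCN, 6 KCa, 10 Kir, 9 K2P and 9 auxiliary). The share of all genes called at an adjusted p under 0.05 was 0% for sex in PiC-MeA, 0% for sex in PiC-PrL, 0.0137% for sex averaged, 0.603% for projection in males, 0% for projection in females, 0.822% for projection averaged and 0% for the difference between the sex differences. The DESeq2 Wald test, which keeps a different set of genes, called 5 of 65 channel genes (all genes tested 8.7%) for sex in PiC-MeA, 3 of 64 channel genes (all genes tested 6.91%) for sex in PiC-PrL, 3 of 64 channel genes (all genes tested 6.35%) for sex averaged, 9 of 65 channel genes (all genes tested 18.4%) for projection in males, 2 of 64 channel genes (all genes tested 4.53%) for projection in females, 4 of 65 channel genes (all genes tested 12.3%) for projection averaged and 5 of 65 channel genes (all genes tested 9.65%) for the difference between the sex differences. The filter admits a gene through the group where it is high, so the 71 genes are not the whole set of channel genes, and their counts and medians below describe them only. Values written as x ± y beside an adjusted p are log2 changes with their SE, taken as male minus female or as PiC-MeA minus PiC-PrL. Genes are named below for the smallest p in each direction among those whose higher group had no library under 10 counts. The contrasts share libraries, and a low or high group enters several of them.

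**Figure D4:**
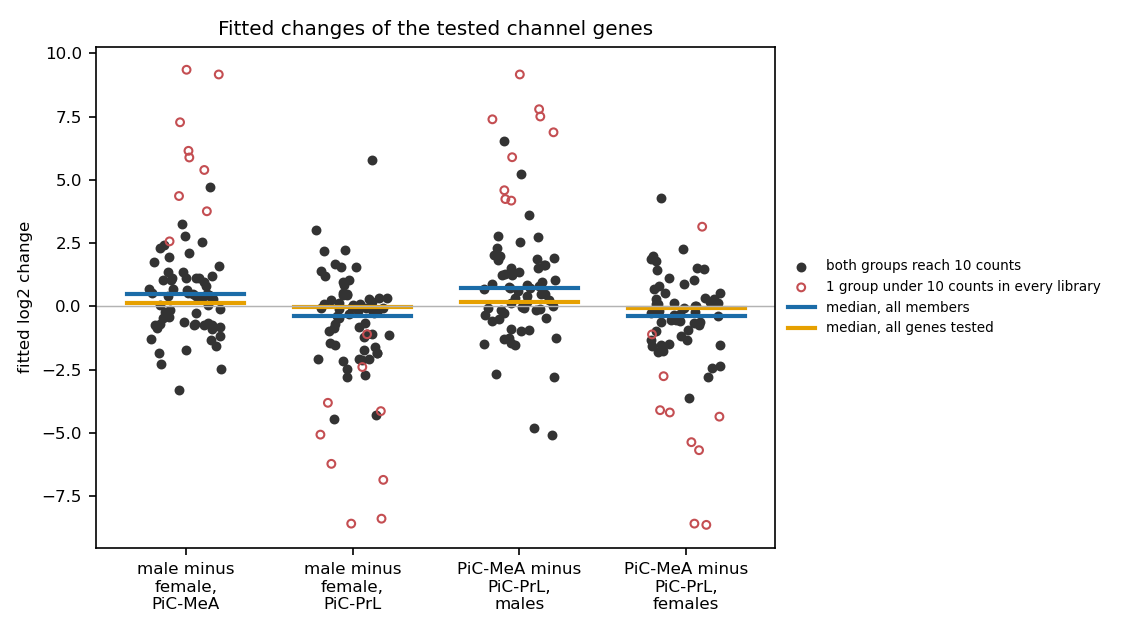
Fitted log2 change of each of the 71 tested channel genes for sex (male minus female) in PiC-MeA and in PiC-PrL and for projection (PiC-MeA minus PiC-PrL) in males and in females. Filled points have at least 10 counts in some library of both groups, and open points have 1 group under 10 counts in every library, where the fitted value depends on the prior count. The blue median of the channel genes lies above that of all genes tested (orange) for sex in PiC-MeA and projection in males and below it for sex in PiC-PrL and projection in females.

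In males, no channel gene passed between PiC-MeA and PiC-PrL neurons, and Kcnip1 and Kcnj10 were higher in each PiC-MeA library than in any PiC-PrL library. Kcnip1 (KChIP1) was at 30.5, 58.3 and 131 CPM in male PiC-MeA libraries, against 2.12, 0.244, 0.695 and 0.0924 CPM in male PiC-PrL libraries (6.52 ± 2.18, edgeR adjusted p = 0.0934). Kcnj10 had 55, 233 and 166 counts in male PiC-MeA libraries, against 0, 0, 1 and 2 counts in male PiC-PrL libraries (edgeR adjusted p = 0.0994). Lower in male PiC-MeA, without overlap, were the Kv1 subunit Kcna6 at 5.69 ± 5.07 CPM in male PiC-MeA and 36.6 ± 20.7 CPM in male PiC-PrL (SD, n = 3 and 4; -2.68 ± 1.35, edgeR adjusted p = 0.261), Kcnj9 at 30.6 ± 13.04 CPM in male PiC-MeA and 84.01 ± 23.5 CPM in male PiC-PrL (-1.46 ± 0.79, edgeR adjusted p = 0.309) and Kcnip2 (KChIP2) at 11.7 ± 1.76 CPM in male PiC-MeA and 79.8 ± 41.9 CPM in male PiC-PrL (-2.77 ± 1.59, edgeR adjusted p = 0.353). None of these 5 passed the threshold of 0.05 in edgeR, while the DESeq2 Wald test called Kcnip1, Kcnj10 and Kcna6.

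Over the 71 genes the fitted change in males was positive for 47 and negative for 24, with a median of 0.75, and over all genes tested it was positive for 7790 and negative for 6807, with a median of 0.16. Higher at an unadjusted p under 0.05 were 11 of 71 (15.5%), against 17.3% of all genes tested, and lower were 0 of 71 (0%), against 4.89% of all genes tested. Groups did not overlap, with male PiC-MeA higher, for 16 of 71 (22.5%), against 19.2% of all genes tested, and lower for 3 of 71 (4.23%), against 6.23% of all genes tested. Removing each library's trend of counts with genomic gene length brought the channel median to 0.35. The tested channel genes spanned a median of 52.2 kb, against 28.8 kb for all genes tested. The median change of all genes with the trend removed is not given here, and the part of gene length was not tested. With detected genes as a covariate, which sets male PiC-MeA apart from all other groups, the Kcnip1 change was -18.73 and the Kcnip2 change 8.06, both of opposite sign. Beside Kcnj10, the summed level of 9 astrocyte markers was 1055 to 1373 CPM in male PiC-MeA and 599 to 1997 CPM in male PiC-PrL. In each male PiC-MeA library 9 of 9 markers reached 10 counts, against 4 to 7 in male PiC-PrL. Between these groups, Aqp4 (37.2 to 147 against 0 to 63.9 CPM), Aldh1l1 and Slc4a4 peaked in male PiC-MeA. Slc1a2, Slc1a3, Gja1, Gjb6, Gfap and Fgfr3 peaked in male PiC-PrL. Female PiC-MeA replicates 2 and 3 had 533 and 489 Kcnj10 counts at astrocyte sums of 263 and 298 CPM. Female PiC-PrL replicate 2 had 1002 counts at 1185 CPM, and male PiC-PrL replicate 4 had 2 counts at 1997 CPM. The part of astrocytes in the Kcnj10 counts was not tested. For Kcnip1, which marks some inhibitory neurons, the 12-gene inhibitory sum was 218 to 3585 CPM in male PiC-MeA and 141 to 591 CPM in male PiC-PrL, and its part was not tested either.

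In females, no channel gene passed between PiC-MeA and PiC-PrL neurons, and the steady BK gene Kcnma1 was lower in each PiC-MeA library than in any PiC-PrL library. Kcnma1 stood at 385, 311 and 399.5 CPM in female PiC-MeA libraries, against 518, 1127, 555 and 597 CPM in female PiC-PrL libraries, without overlap, and the fitted log2 change was -0.94 ± 0.33, edgeR adjusted p = 0.403. Kcnh5, the EAG2 pore gene (chr12:74897220-75177332 on the minus strand), had 0, 1 and 2 counts in female PiC-MeA libraries, against 333, 539, 33 and 663 counts in female PiC-PrL libraries (edgeR adjusted p = 0.388, DESeq2 Wald adjusted p = 2.6e-06). Kcnb2 was at 71.4, 17.996 and 133 CPM in female PiC-MeA libraries, against 139, 193, 115 and 426 CPM in female PiC-PrL libraries (-1.56 ± 0.63, edgeR adjusted p = 0.409). The 3 genes named on the higher side were Kcnip3 (0.79 ± 0.58, edgeR adjusted p = 0.738), Kcnj12 (2.29 ± 2.15, edgeR adjusted p = 0.860) and Kcnk4 (1.87 ± 2.13, edgeR adjusted p = 0.921), and only Kcnk4 of these did not overlap, with 20.7, 27.4 and 25.7 CPM in female PiC-MeA libraries, against 0, 7.46, 19.4 and 0 CPM in female PiC-PrL libraries. None of the 6 passed in edgeR. The change was positive for 26 and negative for 45 of the 71 genes, with a median of -0.36, against -0.06 over all genes tested. Higher at an unadjusted p under 0.05 were 0 of 71 (0%), against 5.78% of all genes tested, and lower were 5 of 71 (7.04%), against 5.31% of all genes tested. Without overlap, 1 of 71 (1.41%), against 4.47% of all genes tested, were higher in female PiC-MeA, and 2 of 71 (2.82%), against 3.97% of all genes tested, were lower. With the male PiC-MeA libraries left out of the fit, the Kcnma1 change was -0.92.

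Among PiC-PrL neurons, no channel gene passed between the sexes. Kcnj6 (GIRK2) was at 24.1, 15.6, 55.5 and 14.5 CPM in male PiC-PrL libraries, against 45.1, 263, 94.99 and 62.4 CPM in female PiC-PrL libraries (-2.08 ± 0.80, edgeR adjusted p = 0.283), with 1 male library inside the female range. Under that count rule the smallest p-values on the higher side were those of Kcnv1 (0.86 ± 0.78, edgeR adjusted p = 0.723), Kcnip3 (0.49 ± 0.54, edgeR adjusted p = 0.795) and Kcnip4 (0.35 ± 0.40, edgeR adjusted p = 0.801), each with overlapping groups. Kcnk12, a silent K2P subunit named after its values were seen, had a smaller p (edgeR adjusted p = 0.336) with 803, 0, 31 and 5 counts in male PiC-PrL libraries, against 0, 0, 13 and 0 counts in female PiC-PrL libraries.

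Of the 71 tested genes, 46 had a negative and 25 a positive change between male and female PiC-PrL neurons, with a median of -0.37, against -0.02 over all genes tested. Lower at an unadjusted p under 0.05 were 12 of 71 (16.9%), against 8.78% of all genes tested, and higher were 1 of 71 (1.41%), against 5.56% of all genes tested. Male PiC-PrL was lower without overlap for 5 of 71 (7.04%), against 2.02% of all genes tested, and higher for 0 of 71 (0%), against 1.49% of all genes tested. Leaving out the male PiC-MeA libraries, which enter the shared estimate of spread and the filter, the median was -0.20. The inhibitory marker sum was 141 to 591 CPM in male PiC-PrL and 434 to 5902 CPM in female PiC-PrL libraries. Npy gave 3327 and Sst 1389 CPM of the 5902 CPM in female PiC-PrL replicate 4, and Npy gave 1505 of 2999 CPM in replicate 1. The part of inhibitory cells in these changes, none of which passed in edgeR, was not tested.

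**Figure D5:**
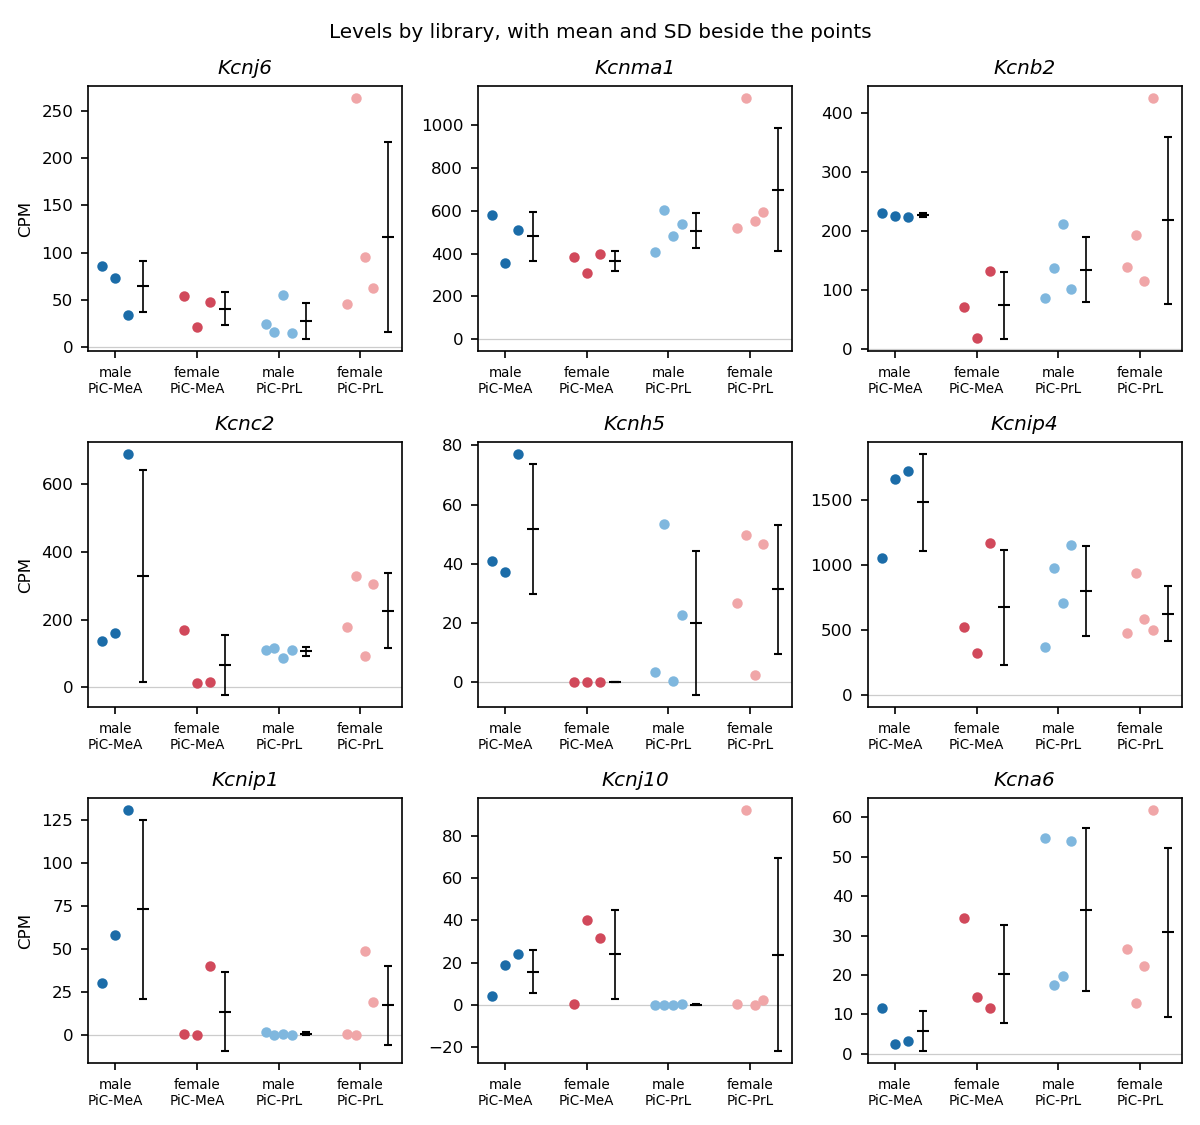
Level of 9 channel genes in each library (CPM on TMM-scaled library sizes), 1 panel per gene, in the order male PiC-MeA, female PiC-MeA, male PiC-PrL and female PiC-PrL, with the mean and SD of each group beside its points. The Kcnma1 points of female PiC-MeA lie under those of female PiC-PrL, and the Kcnh5 points of female PiC-MeA lie at or near 0.

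Among PiC-MeA neurons, no channel gene passed between the sexes. Kcnh5 had 517, 460 and 534 counts in male PiC-MeA libraries, against 0, 1 and 2 counts in female PiC-MeA libraries (edgeR adjusted p = 0.298, DESeq2 Wald adjusted p = 9.3e-07). In PiC-PrL libraries Kcnh5 had 51, 654, 5 and 247 counts in males and 333, 539, 33 and 663 counts in females, so low tubes also occurred there. Kcnb2 was at 231, 226 and 224 CPM in male PiC-MeA libraries, against 71.4, 17.996 and 133 CPM in female PiC-MeA libraries, without overlap (1.62 ± 0.66, edgeR adjusted p = 0.341), and Kcnc2 at 137, 161 and 687 CPM in male PiC-MeA libraries, against 168, 13.4 and 15.95 CPM in female PiC-MeA libraries, with overlap (2.32 ± 0.87, edgeR adjusted p = 0.313). On the lower side were Kcnip3 (KChIP3, also known as the transcriptional repressor DREAM) at 73.9 ± 52.1 CPM in male PiC-MeA and 179 ± 60.4 CPM in female PiC-MeA (SD, n = 3 each; -1.28 ± 0.63, edgeR adjusted p = 0.433), Kcna6 at 5.69 ± 5.07 CPM in male PiC-MeA and 20.2 ± 12.5 CPM in female PiC-MeA (-1.82 ± 1.35, edgeR adjusted p = 0.787) and Kcnk3 at 3.06 ± 0.262 CPM in male PiC-MeA and 16.9 ± 8.08 CPM in female PiC-MeA (-2.46 ± 2.46, edgeR adjusted p = 0.965). None of the 6 passed in edgeR. The change was positive for 45 and negative for 26 of the 71 genes, with a median of 0.48, against 0.12 over all genes tested. Higher at an unadjusted p under 0.05 were 7 of 71 (9.86%), against 10.3% of all genes tested, and lower were 0 of 71 (0%), against 2.05% of all genes tested. Groups did not overlap, with male PiC-MeA higher, for 11 of 71 (15.5%), against 17.5% of all genes tested, and lower for 4 of 71 (5.63%), against 8.76% of all genes tested. With the gene length trend removed the channel median was -0.01, and the part of gene length was not tested. With detected genes as a covariate the Kcnb2 change was -0.73 and the Kcnip3 change 1.83, both of opposite sign.

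Averaged over both projections, Kcnip4 had the smallest p under the count rule among those higher in males, at 1090 CPM in male and 646 CPM in female libraries on average (0.74 ± 0.31, edgeR adjusted p = 0.393), followed by Kcnq3 (0.40 ± 0.27, edgeR adjusted p = 0.715) and Kcnc2 (0.61 ± 0.55, edgeR adjusted p = 0.841). Kcnh5, outside the rule because male PiC-PrL replicate 3 had 5 counts, had a smaller p than Kcnip4 (edgeR adjusted p = 0.275). Kcnh8 was outside it too, with 1 count in male PiC-PrL replicate 4 (edgeR adjusted p = 0.466), and both were named after their values were seen. None passed. Kcnh8 had 120, 626 and 217 counts in male PiC-MeA and 5, 8 and 38 in female PiC-MeA libraries. In PiC-PrL it had 6, 4, 35 and 1 counts in males and 5, 10, 4 and 9 in females. Kcnh5 averaged 19.9 CPM in male PiC-PrL and 31.3 CPM in female PiC-PrL, the opposite order to PiC-MeA. Of the tested genes, 3 of 71 (4.23%), against 7.6% of all genes tested, were higher at an unadjusted p under 0.05, and 3 of 71 (4.23%), against 3.06% of all genes tested, were lower. Averaged over both sexes, Kcnip4 was on the higher side in PiC-MeA (0.50 ± 0.30, edgeR adjusted p = 0.453), and on the lower side were Kcnma1 (-0.51 ± 0.23, edgeR adjusted p = 0.264), Kcna6 (-1.65 ± 0.91, edgeR adjusted p = 0.389) and Kcnj9 (-0.99 ± 0.55, edgeR adjusted p = 0.391). None of these passed either. At an unadjusted p under 0.05, 6 of 71 (8.45%), against 12.1% of all genes tested, were higher and 2 of 71 (2.82%), against 5.27% of all genes tested, lower. Without female PiC-MeA replicate 3 the Kcnip4 change was -0.034, of opposite sign. With detected genes as a covariate the average Kcnma1 change was 0.99, also of opposite sign.

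The sex difference in PiC-MeA minus that in PiC-PrL was positive for 51 and negative for 20 of the 71 genes, with a median of 1.25, against 0.31 over all genes tested. Positive at an unadjusted p under 0.05 were 14 of 71 (19.7%), against 11.8% of all genes tested, and negative were 2 of 71 (2.82%), against 3.75% of all genes tested. For Kcnb2 the sex change was 1.62 ± 0.66 in PiC-MeA and -0.69 ± 0.56 in PiC-PrL, and the difference between them was 2.31 ± 0.87, edgeR adjusted p = 0.207. For Kcnc2 the same values were 2.32 ± 0.87, -1.09 ± 0.73 and 3.41 ± 1.13, edgeR adjusted p = 0.161. Of the GIRK genes, Kcnj3 gave a difference of 2.67 ± 1.12, edgeR adjusted p = 0.255, Kcnj6 2.74 ± 1.20, edgeR adjusted p = 0.275, and Kcnj9 -0.93 ± 1.07, edgeR adjusted p = 0.761. No channel gene passed for this difference. With the gene length trend removed the channel median was 0.66, and the part of gene length was not tested here either.

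Partner genes of the channels were read from a separate list, of which 25 are reported and 20 were tested. It held calmodulins, Kv1 and Kv4 membrane partners, scaffolds, sulfonylurea receptors and BK gamma subunits. In males, 1 of the 20 passed, against 0.603% of all genes tested. Calm2, a calmodulin gene whose product is a standing subunit of SK and Kv7 channels, averaged 6829 ± 2287 CPM in male PiC-MeA and 19663 ± 6146 CPM in male PiC-PrL (SD, n = 3 and 4; log2 change -1.53 ± 0.29, edgeR adjusted p = 0.0237). Averaged over both sexes, 2 of the 20 passed, against 0.822% of all genes tested, and both were lower in PiC-MeA. They were Calm2 (-1.06 ± 0.20, edgeR adjusted p = 0.0198) and Akap5 (-1.64 ± 0.36, edgeR adjusted p = 0.0456), the anchoring protein that brings kinases to Kv7 and other channels. With detected genes as a covariate no gene of the table passed in either contrast, and the Calm2 change in males was 0.42, of opposite sign. The averaged Calm2 call was also lost without male PiC-PrL replicate 2 (edgeR adjusted p = 0.0527). Calm2 did not pass in males without male PiC-MeA replicate 3 or male PiC-PrL replicate 2 or 4, and Akap5 passed in 3 of the 14 fits that left out 1 library. Akap5 averaged 88.4 ± 22.2 CPM in male PiC-MeA, 84.9 ± 0.933 in female PiC-MeA, 255 ± 197 in male PiC-PrL and 287 ± 61.6 in female PiC-PrL. For both sex contrasts within a projection, projection in females, sex averaged and the difference between the sex differences, edgeR called 0 of the 20, and at an unadjusted p under 0.05 there were 3 for sex in PiC-MeA, 2 for sex in PiC-PrL, 3 for projection in females, 2 for sex averaged and 3 for that difference. The shares of all genes tested at that p were 12.4, 14.3, 11.1, 10.7 and 15.6% in the same order. Cntnap2, the Kv1-clustering protein of the axon, averaged 1195 ± 495 CPM in male PiC-MeA and 395 ± 128 CPM in female PiC-MeA (1.60 ± 0.43, edgeR adjusted p = 0.298). Dlg2, a scaffold that binds Kv1 and Kir channels, averaged 579.8 ± 204 CPM in male PiC-PrL and 1388 ± 650.3 CPM in female PiC-PrL (-1.26 ± 0.38, edgeR adjusted p = 0.283).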

How the data were processed

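RNA was read from 14 libraries of 4 to 5 cells each. The authors' deposited table holds raw counts per gene, 1 column per library, without normalization. Tools listed in the submitters' processing notes are featureCounts 2.0.1, HISAT2 2.2.1, Trimmomatic 0.39 and SAMtools, with mm10 as the build. Annotation release, strand setting and treatment of shared reads: not given in the sources used here. Of the 55401 gene identifiers, 54349 matched GENCODE M21 with their version and 55141 without it. Positions and exon lengths came from that release. Total counts ran from 6132985 to 15392217, and intervals and floors of 3 counts reflect counting error alone.

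The filter filterByExpr of edgeR 4.0.16 (R 4.3.3), at min.count 10 and min.total.count 15, left 14599 genes. After TMM scaling, edgeR's robust quasi-likelihood test was run with 1 mean per group. Sex is given as male minus female, and projection as PiC-MeA minus PiC-PrL. Passing means an adjusted p (Benjamini-Hochberg, all genes tested) under 0.05. Changes are log2 values ± SE, taken from the F statistic. CPM values use the TMM-scaled library sizes, and TPM values divide counts by the union of exons. The fit was tested on simulated data.

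Genes named with levels were the HCN genes, the 4 per class with the highest median TPM and a list of 27 further genes. Genes named with changes were the 3 per direction and contrast with the smallest p whose higher group had no library under 10 counts. The interaction values and the partner genes named beyond those that passed were chosen after their values were seen. Some genes are not reported here. The channel genes, lists and rules were chosen with earlier results of these data known. Alternatives tried were the DESeq2 1.42.0 Wald test, size factors from DESeq2 in edgeR, a filter asking for 10 counts in 7 libraries, no filter, only the groups compared, detected genes as a covariate, a replicate block, removal of the trend with gene span, CPM of total counts, another transcript length and leaving out each library. A fit and counts without the 3 male PiC-MeA libraries were added after seeing the data.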

Additional observations from a re-analysis of the deposited data

Results flagged for a closer look

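Among 90 groups of 4 libraries (the PiC-PrL groups of the channel genes named with levels and of the class sums), 21 had 1 library far from the other 3 by Dixon's test at 95%. Chance flags about 1 in 20 groups where values are normally distributed. Many of these CPM values lie near 0 with 1 high library, so the rate that chance gives here is not known. The genes also share libraries, so the 21 flags do not count as an excess. The PiC-MeA groups of 3 were not tested. In male PiC-PrL replicate 4, Kcna1 stood high at 101 CPM (nearest library 1.86), Kcnq3 at 339 (275), Kcnk9 at 317 (24.8). The gene flags were drawn on TMM-scaled CPM, and some depend on that scale. Kcnq3 did not stand out as TPM, at a TMM factor of 0.743 in that library. As TPM, Kcnq3 was at 58.1, 49.1, 52.7 and 47.95 in the male PiC-PrL libraries, lowest in replicate 4. In male PiC-PrL replicate 1, Kcnc1 stood high at 51.3 CPM (nearest library 1.66), Hcn3 at 6.15 (1.04), Kcnj16 at 36.3 (2.61). In female PiC-PrL replicate 1, Kcnc1 stood high at 77.2 CPM (nearest library 57.1), Hcn4 at 0.563 (0.0921), Kcnn2 at 43.5 (6.95). In female PiC-PrL replicate 2, Kcnq5 stood high at 1254 CPM (nearest library 237), Kcnma1 at 1127 (597), Kcnj10 at 92.3 (2.39), Kcnj12 at 9.40 (0.428). In female PiC-PrL replicate 3, Hcn3 stood high at 5.63 CPM (nearest library 0.0805), Kcnj16 at 16.7 (0.0702). In female PiC-PrL replicate 3, Kcnt1 stood low at 0.214 CPM (nearest library 10.96). In male PiC-PrL replicate 3, Kcnn3 stood high at 44.9 CPM (nearest library 5.13). In male PiC-PrL replicate 2, Kcnk2 stood high at 77.6 CPM (nearest library 11.4), Kcnk4 at 61.4 (9.51). In female PiC-PrL replicate 4, Kcnip3 stood high at 155 CPM (nearest library 89.6). The summed KCa level of female PiC-PrL replicate 3 was low at 135 TPM (nearest 157). The highest Kcnma1 and Kcnq5 values came from 1 tube, female PiC-PrL replicate 2, in which Kcnj10 and Kcnj12 were also high. Its TMM factor was 0.757. As TPM, Kcnma1 was at 95.8, 147, 111 and 102 in the female PiC-PrL libraries. Kcnip3 was at 79.4, 50.6, 84.9 and 127 TPM there, and Kcnc1 at 25.7, 13.3, 19.4 and 16.4 TPM. Kcnt1 was at 3.73, 2.55, 0.0766 and 3.92 TPM. For each of these genes the flagged library stood less far apart than it did as CPM.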

How the results depend on the processing

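No channel gene passed in edgeR in any of the 7 contrasts, and none passed with DESeq2 size factors, the stricter filter, detected genes as a covariate, the replicate block, the gene span trend removed or any library left out. Over all genes the counts called were 0 for sex in PiC-MeA, 0 for sex in PiC-PrL, 2 for sex averaged, 88 for projection in males, 0 for projection in females, 120 for projection averaged and 0 for the difference between the sex differences. The DESeq2 Wald test called 1435 for sex in PiC-MeA, 1033 for sex in PiC-PrL, 948 for sex averaged, 3029 for projection in males, 677 for projection in females, 1966 for projection averaged and 1544 for the difference between the sex differences over all genes, and 5, 3, 3, 9, 2, 4 and 5 channel genes in that order, among them Kcna6 for projection in males (-2.65, adjusted p = 0.00936). Of the genes described above, the Wald calls also included Kcnip1 (adjusted p = 0.00134), Kcnj10 (0.00316) and Kcnh8 (3.4e-05) for projection in males. Kcnh5 was called for sex in PiC-MeA (9.3e-07) and for projection in females (2.6e-06), and Kcnh8 for sex in PiC-MeA (0.00112). The calls for sex in PiC-PrL included Kcnj10, lower in males (0.00136). Those for sex averaged included Kcnh5 (0.000737), Kcnh8 (0.0149) and Kcnj10, lower in males (0.0422). Those for projection averaged included Kcna6 (0.0389), Kcnh8 (0.000953) and Kcnh5, lower in PiC-MeA (0.00549). For the difference between the sex differences they included Kcnh5 (5.8e-05) and Kcnip1 (0.0412). Without a filter edgeR called 45 for sex in PiC-MeA, 38 for sex in PiC-PrL, 17 for sex averaged, 159 for projection in males, 46 for projection in females, 452 for projection averaged and 84 for the difference between the sex differences, and 1 channel gene, for projection in males. The stricter filter gave 1 for sex in PiC-PrL, 1 for sex averaged and 75 for projection averaged. With only the groups compared, projection in males gave 987 genes and 4 channel genes, among them Kcns1, Hcn4 and Kcnip1. The numbers of genes tested without a filter and with only the groups compared are not given here. The channel counts of those fits therefore stand without a share of all genes and are not read as a result about channels. The gene span trend removed gave 5 for sex in PiC-MeA and 7 for the difference between the sex differences. Calm2 for projection in males missed the threshold with the stricter filter, Calm2 for projection in males also with the gene span trend removed, and Akap5 with DESeq2 size factors, the stricter filter and the gene span trend removed. The cause of these moves was not tested.

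With detected genes as a covariate the counts were 0 for sex averaged, 0 for projection in males and 0 for projection averaged. Signs turned for Calm2 in males (0.42), Kcnb2 (-0.73) and Kcnip3 (1.83) for sex in PiC-MeA, Kcnip3 (-0.25) for sex in PiC-PrL, Kcnip1 (-18.73) and Kcnip2 (8.06) for projection in males, and Kcnma1 (0.99) for projection averaged. This covariate separates the male PiC-MeA libraries from all others.

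Leaving out each library gave ranges of 0 to 14 for sex in PiC-MeA, 0 to 1 for sex in PiC-PrL, 1 to 2 for sex averaged, 20 to 139 for projection in males, 0 to 1 for projection in females, 39 to 128 for projection averaged and 0 to 5 for the difference between the sex differences. For projection in males the count left the range within 1.5 times of 88 without any 1 male PiC-MeA library, male PiC-PrL replicate 2, 3 or 4, or female PiC-MeA replicate 3. For projection averaged it did so without any 1 female PiC-MeA library, male PiC-MeA replicate 2 or 3, male PiC-PrL replicate 2 or 4, or female PiC-PrL replicate 2. The channel median ran from 0.22 to 0.71 for sex in PiC-MeA, -0.80 to -0.18 for sex in PiC-PrL, 0.37 to 0.85 for projection in males and -0.89 to -0.08 for projection in females. For projection averaged the Kcnip4 change ran from -0.034, without female PiC-MeA replicate 3, to 0.63. Same-numbered libraries of different groups did not deviate together (19 pairs, r from -0.0388 to 0.0407, and 6 of 14 libraries correlated best with their own number), so the numbers were not taken to pair them. The replicate block gave 1 for sex averaged, 38 for projection in males and 43 for projection averaged, and Akap5 did not pass in it. The other settings kept the sign of each named change. Mean CPM of Kcnb2, Kcnn2, Kcnn3, Kcnk3, Kcnab2 and Kcnip2 in male PiC-MeA moved by over 1 SD on total counts in place of TMM. Tubes of a few cells limit low genes most, since 56 of 96 channel genes reached 10 counts in some libraries and not in others.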
